A study of Homo sapiens with 4 samples.

Results

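Metallothioneins and the zinc response were followed through 9 genes of the 59050 listed in the count files. They are the metallothionein genes MT1A, MT1E, MT1F, MT1G, MT1M, MT1X and MT2A, together with MTF1, which encodes the zinc-sensing transcription factor, and SLC30A1, which encodes a zinc exporter of the plasma membrane. The members were taken by gene symbol, and all 9 were found. The RNA came from cells that the labels call HepG2, a line derived from human liver cancer, in 2 biological replicates per group and 4 libraries in all. Untreated cells (0 h) were compared with cells that had received doxorubicin for 24 h (1 ug/ml), which damages DNA and thereby activates p53. The treatment tag of the treated samples reads p53-miRNA instead, so groups were taken from the titles.

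Metallothioneins are small proteins rich in cysteine that bind zinc and copper and can take up cadmium. When free zinc increases, MTF1 enters the nucleus, binds metal response elements in the promoters of metallothionein genes and of SLC30A1, and activates them. Metallothionein genes also respond to glucocorticoids and to oxidative stress, and they are well known for their abundance in liver.

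The libraries held between 27572740 and 36272180 counts. Untreated replicate 2 stood apart from the others, lying outside the range of the other 3 libraries in 81.8% of the 17479 genes tested. Any single library is outermost in many genes by chance alone, and this share was not computed for the others. The correlation of untreated replicates 1 and 2 over the log2 CPM of the genes tested was 0.887, against 0.988 between the doxorubicin replicates. CPM is the count scaled to a library total of 1000000. These values set untreated replicate 2 apart only by description. Log2 fold changes are therefore given with and without untreated replicate 2. The labelled cell type was not borne out by liver markers, since ALB had at most 3 counts in any library and the summed CPM of 10 liver genes was between 0.965 and 5.80. Of 6 blood markers, CD68 and HBB had 0 counts in every library. Their summed CPM over all 6 genes peaked at 2.42 in untreated replicate 2 and lay between 0.233 and 0.551 elsewhere. HBA1 reached 55 counts in untreated replicate 2, against 6 to 11 in each other library, and PTPRC reached 12 counts there, against at most 3. Among 8 markers of squamous epithelium, KRT17 (929 to 1587 CPM) and SFN (153 to 723 CPM) made up nearly all of a summed CPM of 1191 to 1956, while KRT5, KRT6A, TP63 and DSG3 had at most 13 counts in any library.

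Promoter sequences are shown for MT2A and MT1X, which were higher in treated cells, and for SLC30A1, which encodes the exporter and was not. They are the 250 bases before the transcription start as given by RefSeq (GRCh38.p14), 5′ to 3′ on the strand of the gene. The windows are chr16:56608334-56608583 (plus strand) for MT2A, chr16:56682220-56682469 (plus strand) for MT1X and chr1:211579162-211579411 (minus strand) for SLC30A1. Capitals mark the core of the metal response element, TGCACNC or TGCGCNC on either strand.
MT2A: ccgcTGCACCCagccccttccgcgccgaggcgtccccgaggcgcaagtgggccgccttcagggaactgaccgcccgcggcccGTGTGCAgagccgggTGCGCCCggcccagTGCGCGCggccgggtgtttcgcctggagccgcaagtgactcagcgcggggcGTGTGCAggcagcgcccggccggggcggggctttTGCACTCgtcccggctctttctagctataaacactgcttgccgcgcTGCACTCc
MT1X: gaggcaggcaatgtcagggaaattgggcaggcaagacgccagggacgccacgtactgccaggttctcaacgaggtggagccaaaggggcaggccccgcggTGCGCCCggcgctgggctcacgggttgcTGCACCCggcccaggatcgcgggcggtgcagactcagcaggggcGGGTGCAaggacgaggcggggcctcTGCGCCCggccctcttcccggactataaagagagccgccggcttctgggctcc
SLC30A1: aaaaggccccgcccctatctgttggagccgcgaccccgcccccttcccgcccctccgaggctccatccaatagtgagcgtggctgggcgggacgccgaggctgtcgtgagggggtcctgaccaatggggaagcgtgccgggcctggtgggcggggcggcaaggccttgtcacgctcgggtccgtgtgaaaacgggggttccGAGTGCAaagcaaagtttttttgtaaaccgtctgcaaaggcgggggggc

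MT2A held 7 matches and MT1X held 4, while SLC30A1 held 1 and MTF1 held 0. Of 35116 promoter windows of the same length, 24.83% held at least 1 match, 0.370% held at least 4 and 0.0313% held at least 7. The promoter table held windows for 4 of the 9 members. The windows of MT1A, MT1E, MT1F, MT1G and MT1M were not analysed here. Among other metallothionein genes, MT1H held 8 matches and had 0 counts in all 4 libraries, and MT1B and MT4 held 3 each. Matches recurred at the same place between genes. MT1X, MT1B and MT1H each had one beginning 53 bases before the start, MT1X and MT1H one at 78 bases, and MT2A and MT1H one at 8 bases. A match describes letters in the window and does not show binding.

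**Figure D1:**
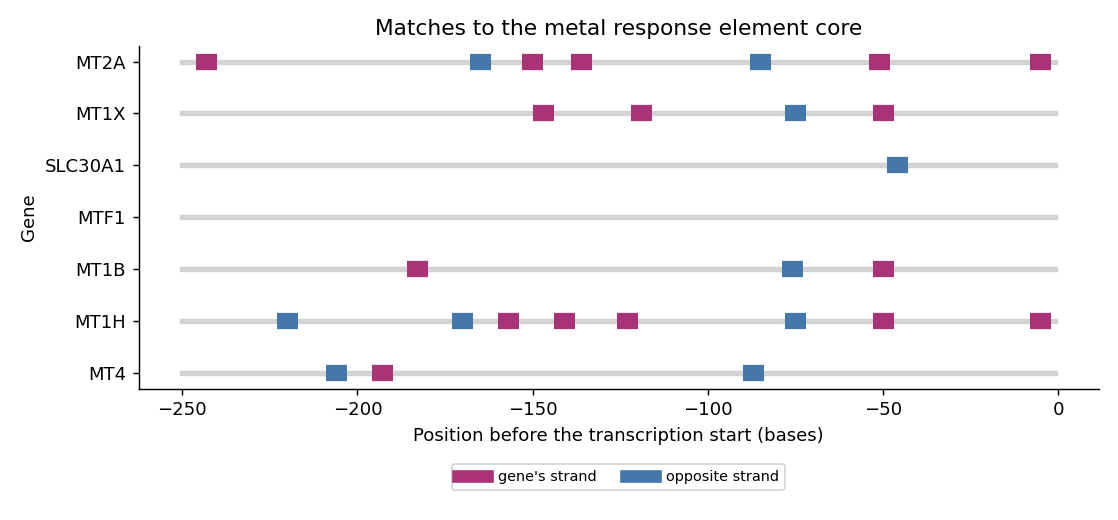
Position of each match to the metal response element core in the 250 bases before the transcription start (horizontal axis, bases) for 7 genes (vertical axis), with colour marking the strand. MT2A has 7 matches and MT1X has 4, SLC30A1 has 1 and MTF1 has none.

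The 4 metallothionein genes with enough counts to be tested, MT2A, MT1E, MT1X and MT1F, were higher in both doxorubicin libraries than in both untreated libraries, in CPM and after TMM scaling of the libraries. The fold ranged from 2.16 for MT2A to 5.25 for MT1F. MTF1 and SLC30A1 overlapped between the groups in CPM. Over all genes tested, 21.3% had both doxorubicin libraries above both untreated libraries, so this order alone is common in these data. A gene was called when its Benjamini-Hochberg adjusted p in the edgeR quasi-likelihood test was under 0.05 and its log2 fold change was 1 or more in either direction. By this rule 0 members were called in the fit of all 4 libraries, and 0 of the 17479 genes (0%). Without adjustment, 3 of the 6 tested members (MT1F, MT2A and MT1X) had p under 0.05 in this edgeR test, all higher in treated cells, against 2.66% of all genes in that direction and 1.73% in the other. DESeq2 and the edgeR exact test called 89 and 46 genes, and no member. In bulk RNA, a change in the number of cells that express a gene and a change in the RNA per cell cannot be told apart.

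Other cell type markers stood beside these values as follows. The summed CPM of 6 fibroblast markers was 225.5 and 169 before treatment, against 283 and 284 after it. COL1A2 was nearly absent, with 2 counts in each untreated library and 0 in each doxorubicin library, and was not tested. DCN (0.469 and 0.623 CPM before, 7.69 and 6.86 after) and LUM (65.4 and 49.3 before, 135.5 and 163 after) differed from the rest. They were the 2 of 5 tested markers with a log2 fold change above 0 (50.8% of all genes did). Both had an unadjusted p under 0.05 in edgeR, against 2.66% of all genes in that direction. DCN had 3.59 and LUM 1.22, and they had 3.81 and 1.05 without untreated replicate 2. COL3A1 was lower in both treated libraries (70.0 and 69.1 CPM before, 55.8 and 45.9 after, log2 fold change -0.60), COL1A1 and PDGFRB had -0.02 and -0.08, and the median of the 5 was -0.02. The summed CPM of the liver markers was 0.965 and 4.05 against 5.80 and 4.72. Within it FGB, a fibrinogen chain, stood at 0.193 and 0.173 CPM before and 3.09 and 2.54 after (log2 fold change 3.76, and 3.71 without untreated replicate 2). HNF4A stood at 0.579 and 0.277 CPM before and 1.92 and 1.20 after (1.68, and 1.31 without that library). AFP and TF were highest in untreated replicate 2, at 1.49 and 1.63 CPM. Of the squamous markers, SFN was lower in both treated libraries (252 and 723 CPM before, 173 and 153 after). Its log2 fold change was -1.73, and -0.76 without untreated replicate 2. KRT14, KRT17 and CDH3, the other tested ones, had 1.12, 0.28 and 0.003 with all libraries. The part of the fibroblast, liver and squamous markers in the level of the metallothioneins was not tested.

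**Figure D2:**
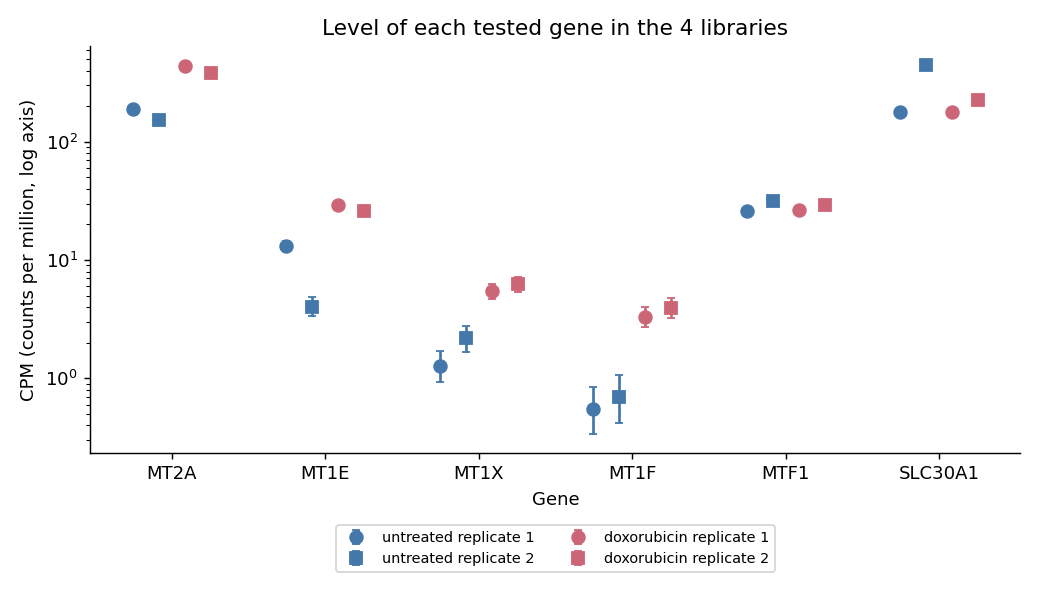
CPM of the 6 tested members (vertical log axis) in each of the 4 libraries, with bars for the exact binomial 95% interval of counting error. In MT2A, MT1E, MT1X and MT1F both doxorubicin points lie above both untreated points, and in SLC30A1 untreated replicate 2 lies above the other 3 libraries.

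MT2A, a widely expressed human metallothionein gene, lies at chr16:56608584-56609497 (GRCh38) on the plus strand, with 3 exons. It had 6867 and 4396 counts in untreated replicates 1 and 2, and 15051 and 10495 counts in doxorubicin replicates 1 and 2. The corresponding CPM was 189 and 152 without the drug, against 439 and 381 with it. The 2 groups did not overlap, and the lowest treated library lay well above the highest untreated one. The mean CPM was 171 ± 26.2 (SD, n = 2) in untreated and 410 ± 41.0 (SD, n = 2) in treated cells. The log2 fold change was 1.11 (standard error 0.30, 95% interval 0.35 to 1.87, adjusted p = 0.773, edgeR with Benjamini-Hochberg adjustment). It was 0.98 without untreated replicate 2, with an adjusted p of 0.00119 in the same edgeR test, which left it just under the required size of 1. In that fit the spread rests on the doxorubicin pair, and the lone untreated library is assumed to vary like it.

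MT1E (chr16:56625475-56627112) encodes an isoform of the MT1 group and was the second most abundant metallothionein. Untreated replicates 1 and 2 had a CPM of 13.2 and 4.05 for it, doxorubicin replicates 1 and 2 a CPM of 29.0 and 25.8. The groups did not overlap, although the untreated libraries differed from each other more than the treated ones did. The mean CPM was 8.62 ± 6.45 (SD, n = 2) against 27.4 ± 2.32 (SD, n = 2). The log2 fold change was 1.50 (standard error 0.63, 95% interval -0.07 to 3.08, adjusted p = 0.773, edgeR). It was 0.92 without untreated replicate 2, with an adjusted p of 0.0193 (edgeR), and 2.57 without untreated replicate 1, so that the size of this difference depended on the untreated library it was read against.

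MT1F (chr16:56657731-56660698), another MT1 isoform, had the largest log2 fold change of the members. It had 20 counts in each untreated library, and 114 and 109 counts in the doxorubicin libraries. Its CPM was 0.551 (exact binomial 95% interval 0.337 to 0.852) and 0.693 (0.423 to 1.07) in untreated cells. In treated cells its CPM was 3.32 (2.74 to 3.99) and 3.95 (3.25 to 4.77). The counting intervals of the 2 groups did not overlap, and both untreated libraries lay close together. The mean CPM was 0.622 ± 0.0999 (SD, n = 2) in untreated and 3.64 ± 0.446 (SD, n = 2) in treated cells. The log2 fold change was 2.39 (standard error 0.59, 95% interval 0.92 to 3.86, adjusted p = 0.773, edgeR), and 170 of the 17479 genes had a larger one. It was 2.57 without untreated replicate 2, with an adjusted p of 5.86e-05 (edgeR), and 2.20 without untreated replicate 1.

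MT1X (chr16:56682470-56684196) had 46 and 63 counts in untreated cells and 187 and 172 counts in treated cells. In CPM it stood at 1.27 and 2.18 in the untreated libraries, and at 5.45 and 6.24 in the doxorubicin libraries. Both treated libraries were again above both untreated ones, with a mean CPM of 5.84 ± 0.557 (SD, n = 2) against 1.73 ± 0.646 (SD, n = 2). The log2 fold change was 1.62 (standard error 0.56, 95% interval 0.22 to 3.01, adjusted p = 0.773, edgeR). It was 2.06 without untreated replicate 2, with an adjusted p of 9.71e-05 (edgeR), and 1.23 without untreated replicate 1. MT1F and MT1X were the 2 of 6 tested members that passed both thresholds as higher in treated cells in the fit without untreated replicate 2, against 4.42% of all genes, while 0 members passed as lower, against 0.566%. With the adjusted p alone, MT2A and MT1E passed too, which makes 4 of 6 against 5.23% of all genes. Left to untreated replicate 2 alone as control, all 4 passed both thresholds, but so did 21.4% of all genes in that direction.

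**Figure D3:**
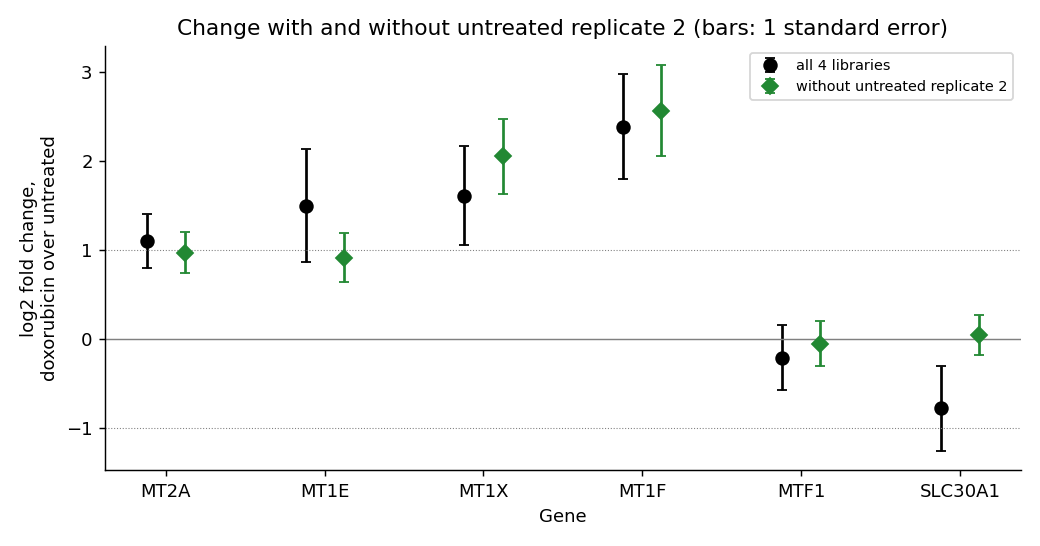
Log2 fold change of doxorubicin over untreated cells (vertical axis) for the 6 tested members, in the fit of all 4 libraries (circles) and without untreated replicate 2 (diamonds), with bars of 1 standard error and dotted lines at 1 and -1. The 4 metallothioneins lie between 1.11 and 2.39 with all libraries and between 0.92 and 2.57 without that library, while SLC30A1 moves from -0.78 to 0.05.

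The other three metallothionein members had too few counts to be tested. MT1G (chr16:56666730-56668065, minus strand) had 4 counts in each untreated library and 2 and 0 counts in the doxorubicin libraries. MT1M (chr16:56632659-56633981) had 1 count, in untreated replicate 2, and MT1A (chr16:56638666-56640087) had 0 counts in all 4 libraries. A count of 0 allows a CPM of up to 0.0827 and 0.104 in untreated replicates 1 and 2, and of up to 0.0874 and 0.109 in doxorubicin replicates 1 and 2, at 3 counts per library. No difference was detectable for these genes at this depth. None of 12 further metallothionein genes and pseudogenes passed the filter on low counts, and none had more than 11 counts in a library. MT1B had 0 counts in both untreated libraries and 5 and 3 counts in doxorubicin replicates 1 and 2. MT1L, MT1CP, MT1P1 and MT1P3 had at most 3 counts in any library. The pseudogene MT1DP had 3 and 2 counts in untreated cells and 6 and 5 counts in treated cells, and MT1XP1 had 4 and 1 against 6 and 6. MT3, known from brain, had 8 counts in untreated replicate 2 and 0 in the others, while MT4, known from squamous epithelium, had 1 and 3 counts in untreated replicates 1 and 2 and 2 and 11 counts in doxorubicin replicates 1 and 2. MT1H, MT1HL1 and MT1JP had 0 counts in all 4 libraries.

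Summed over all metallothionein genes, the CPM was 204.6 in untreated replicate 1 and 160.0 in untreated replicate 2. The sum was 477 and 418 in the doxorubicin libraries. MT2A made up 92.5% (exact binomial 95% interval 91.9 to 93.1) and 95.2% (94.5 to 95.8) of these counts in untreated cells. In treated cells it made up 91.9% (91.5 to 92.3) and 91.1% (90.6 to 91.7). The family total is thus nearly the level of 1 gene. MT1E made up 6.44% (5.89 to 7.02) in untreated replicate 1, and 6.08% and 6.17% in the doxorubicin libraries. In untreated replicate 2 it made up 2.53% (2.10 to 3.03), apart from the other 3 libraries. MT1F made up 0.269% and 0.433% before treatment, against 0.696% and 0.947% after it. These intervals cover counting error alone.

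Levels were compared between genes per length, as RPKM (CPM per kb of exons in the GENCODE release 44 basic annotation). MT2A was the highest member in all 4 libraries, with an RPKM of 312 and 251 in untreated and of 724 and 628 in treated cells. SLC30A1 followed, with an RPKM of 30.1 and 75.1 in untreated and of 30.5 and 38.2 in treated cells. MT1E had an RPKM of 12.5 and 3.85 in untreated and of 27.6 and 24.5 in treated cells, so that it came close to SLC30A1 in treated cells. MT1F and MT1X did not differ beyond the spread of the libraries in treated cells, with an RPKM of 7.08 and 8.43 for MT1F and of 7.01 and 8.03 for MT1X. In untreated cells both lay below MTF1, which had an RPKM of 3.30 and 3.97, and in treated cells both lay above it, where MTF1 had 3.34 and 3.69.

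The metallothionein genes are close copies of each other, so their reads can be divided in more than 1 way. Of all distinct 50-base windows in the annotated transcripts of MT2A, 2.81% also occurred in another metallothionein gene. The share was 4.92% for MT1E, 5.13% for MT1F, 8.80% for MT1X and 16.0% for MT1G. Most windows of the 4 tested genes were therefore found in 1 metallothionein gene alone, though the length of the reads is not given in the sources used here.

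MTF1 (chr1:37809574-37859592, minus strand), the zinc sensor, stood at a CPM of 26.2 and 31.5 in the untreated libraries, and of 26.5 and 29.3 in the doxorubicin libraries. The groups overlapped in CPM, and after TMM scaling both treated libraries lay below both untreated ones, as in 17.9% of all genes. The log2 fold change was -0.21 (standard error 0.36, 95% interval -1.12 to 0.70, adjusted p = 0.871, edgeR). It was -0.05 (standard error 0.26) without untreated replicate 2.

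SLC30A1 (chr1:211571568-211579161, minus strand), the zinc exporter that MTF1 is known to activate, had a CPM of 177.5 in untreated replicate 1 and 443 in untreated replicate 2. In doxorubicin replicates 1 and 2 its CPM was 179.9 and 225. The level of untreated replicate 2 exceeded that of each other library. In CPM without TMM scaling, untreated replicate 1 lay below both treated libraries, close to doxorubicin replicate 1. The groups overlapped both in CPM and after TMM scaling. The mean CPM was 310.0 ± 187 (SD, n = 2) in untreated and 202 ± 31.8 (SD, n = 2) in treated cells. The log2 fold change was -0.78 (standard error 0.48, 95% interval -1.97 to 0.42, adjusted p = 0.773, edgeR) and its direction turned without untreated replicate 2, at 0.05 (standard error 0.22, adjusted p = 0.938, edgeR). When untreated replicate 1 was left out it was -1.32 and passed both thresholds, as did 19.6% of all genes in that direction.

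The 4 tested metallothionein genes lie within 75.6 kb of chromosome 16, counted from the first base of MT2A to the last base of MT1X. Genes up to 250 kb on either side were examined to see whether the whole region was higher in treated cells. Of 8 such genes that were tested, 5 had a log2 fold change above 0 (50.8% of all genes did), and their median was 0.33, against 0.01 over all genes. Their median was -0.16 when untreated replicate 2 was left out. HERPUD1, a gene of the endoplasmic reticulum stress response, had the largest value of the flanking genes, at 0.93 (standard error 0.35) and at 0.71 without untreated replicate 2. With all libraries it was the 1 flanking gene with an unadjusted p under 0.05 in edgeR, against 2.66% of all genes in that direction. OGFOD1 had the lowest, at -1.14 (standard error 0.51), with a CPM of 93.1 in untreated replicate 1, 243 in untreated replicate 2, and 85.2 and 84.8 with the drug. Leaving out untreated replicate 2 brought OGFOD1 to -0.27, and SLC12A3, a sodium chloride transporter gene, which had 0.20 with all libraries, was then the lowest at -0.60. NUP93, the nearest tested gene beyond MT1X, encodes a nuclear pore protein and had -0.23 (standard error 0.33), and -0.43 without that library. BBS2, on the other side of the cluster, had 0.90 (standard error 0.39), and 0.65 without it. Each of the 4 metallothioneins lay above all 8 flanking genes, both in the fit of all libraries and without untreated replicate 2. At its narrowest the gap was smaller than the standard errors. With all libraries MT2A had 1.11 (standard error 0.30), beside 0.93 (standard error 0.35) for HERPUD1. Without untreated replicate 2, MT1E had 0.92 (standard error 0.28), beside 0.71 for HERPUD1.

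**Figure D4:**
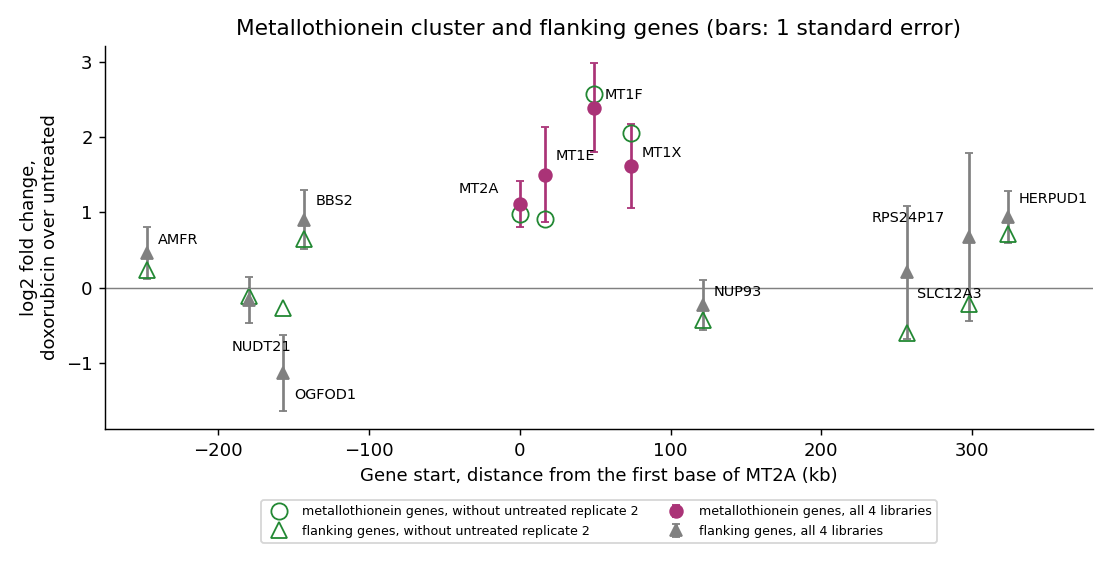
Log2 fold change of doxorubicin over untreated cells (vertical axis) against the distance of each gene start from the first base of MT2A (horizontal axis, kb), for the 4 tested metallothioneins and 8 flanking genes, with bars of 1 standard error and open symbols for the fit without untreated replicate 2. The metallothioneins lie at 1.11 to 2.39 and the flanking genes at -1.14 to 0.93.

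Of 9 other members of the SLC30 family, which move zinc out of the cytosol, 6 were tested and 0 were called. Of these 6, 5 had a log2 fold change above 0 (50.8% of all genes did). SLC30A3, an exporter into vesicles, had -3.11 (standard error 1.24). Its CPM was 4.47 in untreated replicate 1, 74.8 in untreated replicate 2, and 4.61 and 5.62 with the drug. Leaving out untreated replicate 2 brought the log2 fold change to 0.05. SLC30A7, SLC30A6 and SLC30A9 had 0.71, 0.57 and 0.55, with standard errors of 0.48, 0.55 and 0.39. These 3 genes had 0.34, 0.06 and 0.31 without untreated replicate 2. The median of the 6 exporters was 0.48, and 0.10 without that library.

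Of 14 members of the SLC39 family, which bring zinc into the cytosol, 10 were tested and 0 were called. Of these 10, 4 had a log2 fold change above 0 (50.8% of all genes did). SLC39A7 had 0 counts in all 4 libraries. SLC39A1 had -1.90 (standard error 0.73) and SLC39A4, the importer of dietary zinc, had -1.10 (standard error 0.74). Both were highest in untreated replicate 2, and without it they had -0.62 and -0.30. SLC39A10 and SLC39A11 had 0.51 and 0.49, with standard errors of 0.74 and 0.58, and both turned direction without untreated replicate 2, at -0.20 and -0.01. The median of the 10 importers was -0.03, and -0.11 without untreated replicate 2. SLC30A3 and SLC39A1 were the 1 gene of each family with an unadjusted p under 0.05 in edgeR, of 6 and 10 tested. Both had a log2 fold change below 0, and 1.73% of all genes had such a p in that direction. Each shrank in size without untreated replicate 2.

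Copper is also bound by metallothioneins, and 9 of 10 genes of copper handling were tested, with 0 called and a median log2 fold change of -0.15. ATP7A, a copper-exporting ATPase, had 1.16 (standard error 0.75), and its CPM was 23.6 and 4.68 before treatment, against 32.1 and 39.0 after it. The copper chaperone ATOX1 had -0.85 (standard error 0.50), CCS, the chaperone of superoxide dismutase, had -0.49 (standard error 0.43) and SOD1 had -0.46 (standard error 0.31). With untreated replicate 2 left out, these 4 genes had 0.45, -0.09, -0.10 and -0.18, so none reached a size of 1.

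Glucocorticoid-responsive genes were examined because glucocorticoids induce metallothioneins. Of 10 genes, 8 were tested, 5 had a log2 fold change above 0 (50.8% of all genes did) and 0 were called, with a median of 0.13. NR3C1, the glucocorticoid receptor, had 1.05 (standard error 0.68), ERRFI1, an inhibitor of the EGF receptor, had 1.02 (standard error 0.54) and DUSP1, a MAP kinase phosphatase, had 0.93 (standard error 0.40). TSC22D3, a classical glucocorticoid target, had -0.65 (standard error 0.34), and its CPM was 70.5 and 85.9 before treatment, against 59.3 and 51.8 after it. Without untreated replicate 2 the median was 0.10, and NR3C1, DUSP1, TSC22D3 and ERRFI1 had 0.38, 0.53, -0.48 and 1.96. PER1 was not analysed here.

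All 10 genes of oxidative stress and glutathione metabolism were tested, with a median log2 fold change of 0.35 and 0 called. Of these, 8 had a log2 fold change above 0 (50.8% of all genes did). SLC7A11 and HMOX1, 2 of the 10, had an unadjusted p under 0.05 in edgeR. Both were higher in treated cells, against 2.66% of all genes in that direction. In the other direction 0 of the 10 had such a p, against 1.73% of all genes. SLC7A11, the cystine importer, stood at a CPM of 91.3 and 34.0 before treatment and of 210.0 and 214 after it, with a log2 fold change of 1.60 and a standard error of 0.52. HMOX1, heme oxygenase, stood at a CPM of 20.5 and 34.3 before treatment and of 63.6 and 61.6 after it, with a log2 fold change of 1.04 and a standard error of 0.40. After TMM scaling both treated libraries lay above both untreated ones in 4 of the 10 genes, SLC7A11, HMOX1, TXNRD1 and GCLM, against 21.3% of all genes. They lay below in 0 of the 10, against 17.9% of all genes. TXNRD1, thioredoxin reductase, had 1.13 (standard error 0.50) and GCLM, a subunit of the enzyme that begins glutathione synthesis, had 0.62 (standard error 0.35). Without untreated replicate 2 the median of the list was 0.61, with HMOX1 at 1.48, SLC7A11 at 1.08, TXNRD1 at 0.61 and GCLM at 0.61.

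**Figure D5:**
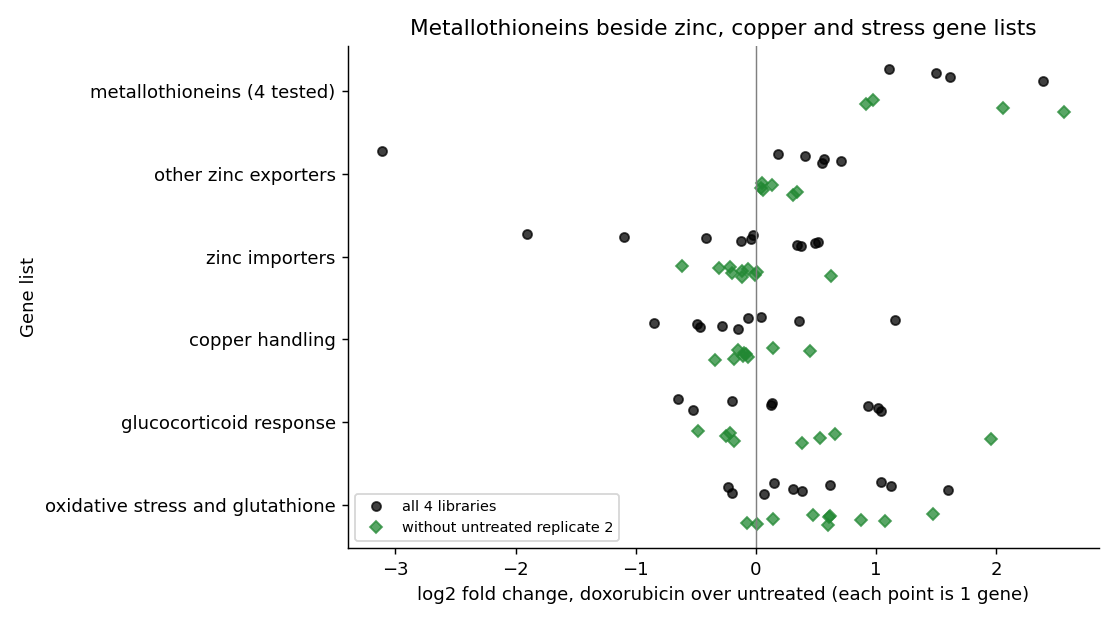
Log2 fold change of doxorubicin over untreated cells (horizontal axis) for each tested gene (points) of the metallothioneins and 5 lists (vertical axis), in the fit of all libraries (circles) and without untreated replicate 2 (diamonds). The metallothioneins lie at 1.11 to 2.39, and SLC30A3 at -3.11 moves to 0.05 without that library.

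The genes whose log2 CPM, centred over the 4 libraries, lay nearest to that of MT2A were FAM162A, DDX11L10, SLC16A6P1, LINC02009 and SDC3, at Euclidean distances of 0.0795 to 0.108. DDX11L10 had 0.138 and 0.104 CPM before treatment, against 0.408 and 0.363 after it. SLC16A6P1 had 0.221 and 0.173 CPM before, against 0.554 and 0.472 after. Both had few counts, so counting error weighs on their distances. FAM162A, a mitochondrial protein gene, had 50.2 and 37.3 CPM before treatment, against 112.5 and 96.4 CPM after it. SDC3, a cell surface proteoglycan gene, had 16.6 and 13.4 CPM before treatment, against 36.8 and 35.4 CPM after it. Among the members the nearest to MT2A was MT1X, at a distance of 0.953, which put it at rank 3577 of all other genes tested. With 4 libraries this likeness is a description.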

How the data were processed

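Counts of 4 RNA-seq libraries were used, 2 of untreated and 2 of doxorubicin-treated cells, grouped by their titles. After filtering (FastQC, Cutadapt) and mapping to hg38 (HISAT2), the authors deposited whole-number counts per gene without normalization. HTSeq is named for counting, and the file headers name GENCODE release 31. Tool versions and the use of strand are not given in the sources used here.

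The filter was filterByExpr, and 17479 genes passed it. TMM factors, glmQLFit and glmQLFTest of edgeR 4.0.16 in R 4.3.3 were applied to the fit of all genes, with a prior count of 0.125, and p-values were adjusted by Benjamini-Hochberg over all genes. Standard errors are the log2 fold change divided by the square root of the F statistic. Calls needed an adjusted p under 0.05 and a log2 fold change of 1 or more in either direction. With 2 libraries against 2, an exact two-sided permutation test cannot give a p under 0.333, and none was made. Counts scaled to CPM used the column totals. Positions and exon lengths came from GENCODE release 44 (GRCh38), and promoters from RefSeq. Protein identity, which had been planned, was replaced by the share of 50-base transcript windows found in another metallothionein gene. Intervals of CPM and shares are exact (Clopper-Pearson) and, like the floor of 3 counts, cover counting error alone.

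The genes named were all 9 members, every other metallothionein gene with a count, up to 4 genes of each list with the largest log2 fold change in size, and the 5 genes nearest to MT2A. The members and lists were chosen with earlier results of these data known, and the flanking genes were added after the values were seen. The alternatives were RLE factors, library size alone, keeping every gene with a count, a minimum CPM of 1 in 2 libraries, DESeq2 1.42.0, the exact test of edgeR, a replicate block, a prior count of 2, and leaving out single libraries.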

Additional observations from a re-analysis of the deposited data

How the results depend on the processing

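The directions of MT1E, MT1F, MT1X, MT2A and MTF1 held under all 12 alternatives tried for each, which were RLE factors, library size alone, keeping every gene with a count, a minimum CPM of 1 in 2 libraries, DESeq2, the edgeR exact test, the replicate block, a prior count of 2 and each of the 4 libraries left out. No member was called under the alternatives that kept all libraries, where the log2 fold changes were 1.46 to 1.72 for MT1E, 2.29 to 2.55 for MT1F, 1.55 to 1.77 for MT1X, 1.06 to 1.26 for MT2A, -0.26 to -0.05 for MTF1 and -0.84 to -0.62 for SLC30A1. Their adjusted p-values (edgeR or DESeq2) were between 0.114 and 0.981. Library size alone moved the median log2 fold change of all genes to 0.17, from 0.01.

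With each library left out, the values were 0.92 to 2.57 for MT1E, 2.20 to 2.57 for MT1F, 1.23 to 2.06 for MT1X, 0.95 to 1.25 for MT2A, -0.36 to -0.05 for MTF1 and -1.32 to 0.05 for SLC30A1, which turned its direction without untreated replicate 2 (0.0472). The members called were 0 to 5 of 6. They were MT1F and MT1X without untreated replicate 2, and MT1E, MT1F, MT1X, MT2A and SLC30A1 without untreated replicate 1. The genes called were 0 to 7173 of all genes, with 871 without untreated replicate 2 and 7173 without untreated replicate 1. In the fits without an untreated replicate, the spread rests on the doxorubicin pair, and the lone untreated library is assumed to vary like it. In the fits without a doxorubicin replicate, the spread rests on the untreated pair, and the lone doxorubicin library is assumed to vary like that pair.

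With all libraries, edgeR called 0 genes in the main test (768 at an unadjusted p under 0.05), DESeq2 called 89, the edgeR exact test 46 and the fit with the replicate block 20. The cause was not tested. Deviations of same-numbered libraries correlated at 0.0219, which does not show that the numbers pair the libraries, and with the replicate block 0 members were called. The depth limits MT1A, MT1G and MT1M, which had 0 to 4 counts per library.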
